A study of Mus musculus with 12 samples.

Results

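Genes of the insulin-like growth factor (IGF) system were followed in the left ventricle of mice, after aortic banding (AB) or sham surgery and with hispidulin or its solvent. The system was represented by 9 genes out of the 18079 in the expression table. They were matched by symbol, and were chosen with earlier results of these data known. They were the ligands Igf1 and Igf2, the receptor Igf1r, and the binding proteins Igfbp2, Igfbp3, Igfbp4, Igfbp5, Igfbp6 and Igfbp7. Of the 9 genes, 8 reached the level needed for testing and Igfbp2 did not.

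IGF1 and IGF2 are secreted growth factors that act through the IGF1 receptor, a tyrosine kinase that drives the phosphoinositide 3-kinase and Akt pathway. IGF-binding proteins carry the ligands in blood and tissue, lengthen their lifetime and either hold them away from the receptor or release them after cleavage by proteases. In heart muscle this pathway is known for its part in growth of cardiomyocytes, and much of the ligand and binding protein in the tissue comes from fibroblasts, macrophages and vessel cells.

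The labels give the strain of all mice as C57BL/6 and the study's methods as male C57BL/6J, and neither names a transgene or deleted allele. AB narrows the descending aorta and loads the left ventricle with pressure. By the labels, surgery was performed at 8 weeks of age and the left ventricular muscle was taken 4 weeks later, at 12 weeks of age. The study's methods give a range of ages that starts at 8 weeks. Hispidulin, a plant flavonoid, was injected into the abdomen once daily at 20 mg/kg/day, starting 1 day ahead of surgery and ending at harvest. Controls received dimethyl sulfoxide (DMSO), its solvent, on the same schedule. There were 3 mice in each of the 4 groups, with 1 library a mouse. The groups are called DMSO+AB, DMSO+Sham, Hispidulin+AB and, for hispidulin without banding, Hispidulin+Sham.

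Levels are given as FPKM, the fragments assigned to a gene per kilobase of transcript, scaled to the size of the library. Changes are differences of group means of log2(FPKM + 1), called log2 fold changes below, with limma's standard error (SE). A gene was called changed at an adjusted p under 0.05. Read counts and sequencing depth were not analysed here, so counting error is unknown. Library totals were alike, at 535235 to 567027 FPKM. Ventricular muscle genes were abundant in every library, with a summed FPKM of 27381 to 35636 over 6 cardiomyocyte markers. The atrial myosin light chain Myl7 stood at 42.3 to 333 FPKM in 3 libraries (Hispidulin+Sham mouse 3, DMSO+AB mouse 2 and Hispidulin+AB mouse 3) and at no more than 15.03 in the other 9. DMSO+AB mouse 1 also stood apart from its group, with a summed FPKM of 6280 over 5 load-response genes (Nppa, Nppb, Myh7, Acta1 and Ankrd1) against 16293 and 18591 in the other two. In bulk tissue, fewer cells of a type and less RNA per cell cannot be told apart.

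The promoters of 3 members are shown here. Igfbp7 and Igfbp5 were called changed in a comparison of AB with sham surgery, and Igfbp6 had the largest log2 fold change among the members not called in the same comparisons. Each window runs from 250 bases before to 50 bases after the transcription start in RefSeq on GRCm38.p6, and all 9 members were matched among 27025 genes with 32851 windows. Igfbp7 lies at chr5:77407996-77408295 on the minus strand, Igfbp5 at chr1:72874816-72875115 on the minus strand and Igfbp6 at chr15:102143936-102144235 on the plus strand. Capitals mark matches, on either strand, to 4 motifs: the TATA box TATAAA, the GC box GGGCGG, the AP-1 site TGANTCA and the TEAD site GGAATG.
Igfbp7: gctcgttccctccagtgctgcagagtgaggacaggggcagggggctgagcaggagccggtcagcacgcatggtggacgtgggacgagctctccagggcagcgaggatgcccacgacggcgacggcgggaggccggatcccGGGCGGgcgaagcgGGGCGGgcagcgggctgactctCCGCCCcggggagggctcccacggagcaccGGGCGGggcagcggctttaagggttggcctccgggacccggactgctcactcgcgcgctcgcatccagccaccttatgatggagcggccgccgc
Igfbp5: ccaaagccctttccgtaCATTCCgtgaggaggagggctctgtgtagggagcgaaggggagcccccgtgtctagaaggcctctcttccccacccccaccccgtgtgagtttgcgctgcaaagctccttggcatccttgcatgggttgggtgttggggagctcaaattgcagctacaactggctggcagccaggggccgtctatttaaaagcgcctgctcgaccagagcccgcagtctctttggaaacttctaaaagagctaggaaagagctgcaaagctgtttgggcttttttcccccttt
Igfbp6: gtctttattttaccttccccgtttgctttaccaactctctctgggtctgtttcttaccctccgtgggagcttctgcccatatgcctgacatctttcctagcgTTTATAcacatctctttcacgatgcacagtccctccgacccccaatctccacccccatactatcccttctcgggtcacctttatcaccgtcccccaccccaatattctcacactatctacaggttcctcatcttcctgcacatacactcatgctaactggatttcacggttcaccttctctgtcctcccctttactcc

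The 3 windows differ in base composition and in the motifs they hold. The Igfbp7 window is 73.3% G and C with 33 CpG pairs, against medians of 52.7% and 7 over all windows. It holds 4 GC boxes, at 110, 96, 74 and 44 bases before the start, the one at 74 on the reverse strand. A GC box is found in 35.7% of all windows. The Igfbp5 window is 56.3% G and C with 10 CpG pairs and holds 1 TEAD site on the reverse strand, a motif found in 14.7% of windows. The Igfbp6 window is 49.7% G and C with 8 CpG pairs, and its only match is a TATA box on the reverse strand at 148 bases before the start. That motif is found in 13.6% of windows. None of the 3 holds the AP-1 letters, which 7.81% of windows hold. These matches describe letters and are not evidence that a factor binds there.

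The members spanned a wide range of levels, and 5 of the 6 binding proteins had a higher mean than the ligands and the receptor. Igfbp7 had the highest mean over the 12 mice, at 292 FPKM, followed by Igfbp4 at 58.7, Igfbp5 at 20.8, Igfbp6 at 19.6 and Igfbp3 at 15.8. Below them came Igf2 at 9.58, Igf1r at 5.09, Igf1 at 1.61 and Igfbp2 at 0.212 FPKM. Most of this order held within single mice. Igfbp7 exceeded Igfbp4 in 12 of 12 mice, and so did Igfbp4 over Igfbp5, Igf2 over Igf1r, Igf1r over Igf1 and Igf1 over Igfbp2. Igfbp3 exceeded Igf2 in 11 of 12 mice. The levels of Igfbp5, Igfbp6 and Igfbp3 ran into each other, with Igfbp5 above Igfbp6 in 10 mice and Igfbp6 above Igfbp3 in 8. Igfbp7 made up 58.3 to 64.8% of the summed FPKM of the 6 binding proteins in sham mice and 67.8 to 80.7% in AB mice.

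**Figure D1:**
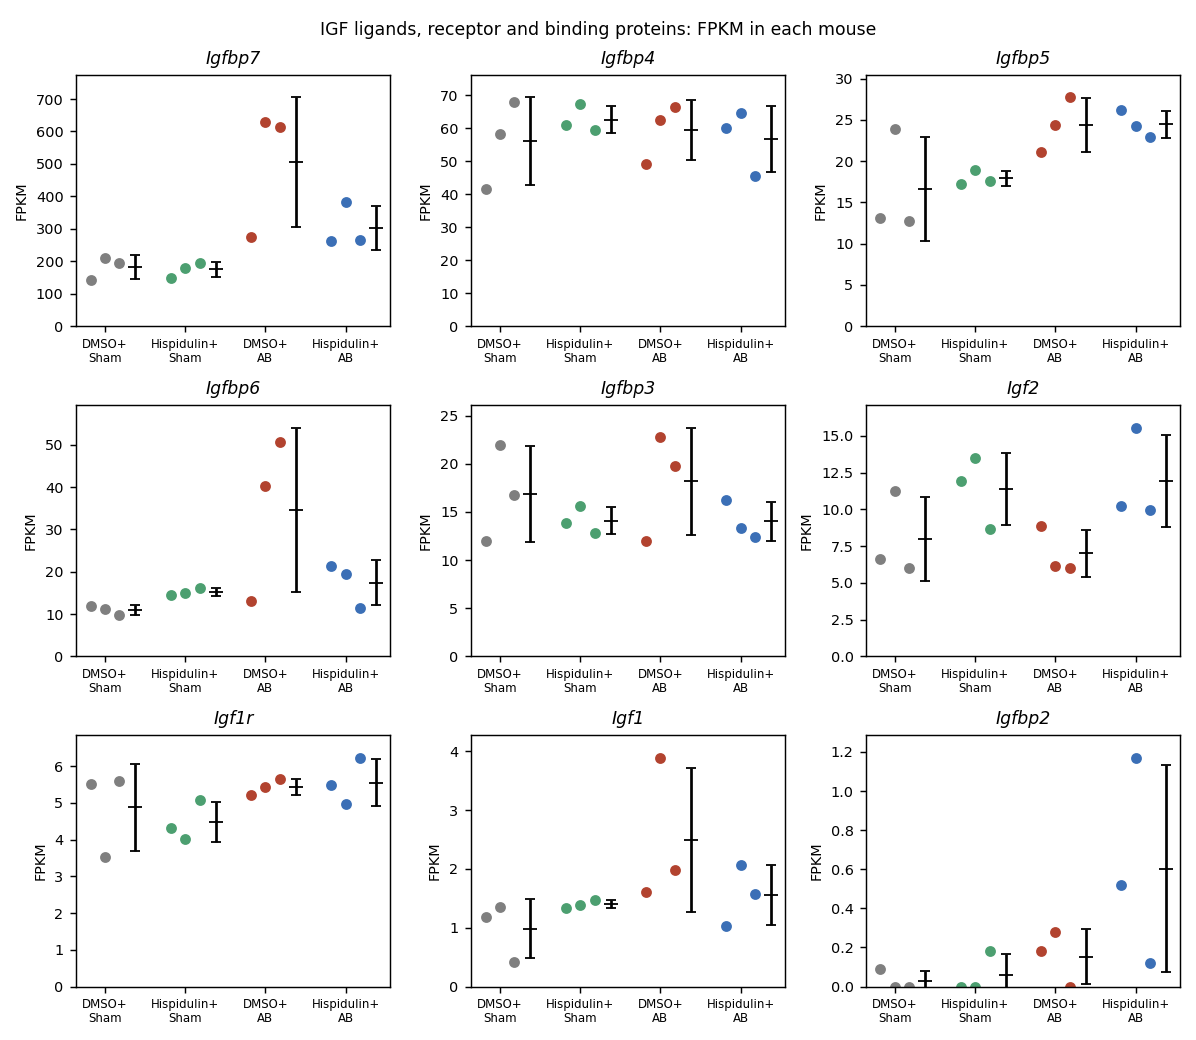
FPKM (vertical axis, from 0) of the 9 IGF genes in each of the 12 mice, grouped by treatment on the horizontal axis, with points for mice 1 to 3 from left to right and the group mean ± SD in black (n = 3). Igfbp7 is higher in each of the 6 AB mice than in each sham mouse, while Igfbp3, Igfbp4 and Igf1r overlap between Sham and AB.

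The first comparison asked how AB changed these genes in mice given DMSO. Igfbp7 rose, and it was the member called out of 8 tested. Over all 11664 genes tested, 5.21% were called in this comparison and 2.5% were called higher. At an unadjusted p under 0.05 there were 4 members, Igfbp7, Igfbp6, Igf1 and Igfbp5, each with a higher mean after AB. The median log2 fold change of the 8 members was 0.36, against -0.03 over all genes tested.

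Igfbp7 encodes a secreted protein that binds IGFs weakly and is made mainly by vessel and stromal cells. In DMSO+Sham it stood at 142, 212 and 194 FPKM in mice 1, 2 and 3. In DMSO+AB the 3 mice had 276, 628 and 614 FPKM. The groups did not overlap, and mouse 1 of DMSO+AB lay well below the other two. The mean was 183 ± 36.3 FPKM (SD, n = 3) after sham surgery and 506 ± 199 FPKM (SD, n = 3) after AB. The log2 fold change was 1.39 (SE 0.28, 95% interval 0.77 to 2.01), with an adjusted p of 0.0200 from limma. The call rested on the spread of all 12 libraries and on single mice. With only the 6 libraries compared in the model the fold change was the same and the adjusted p was 0.144, and when the series of animal numbers was a covariate the values were 1.23 and 0.0887. DMSO+Sham mouse 1 is the 1 mouse outside those series, so the fit with that covariate in effect leaves it out. Without DMSO+Sham mouse 1 the adjusted p was 0.0864, without DMSO+AB mouse 2 it was 0.0896 and without DMSO+AB mouse 3 it was 0.0767, at log2 fold changes of 1.19 to 1.22. Without the 3 libraries of high Myl7 the log2 fold change was 1.19 (adjusted p = 0.179).

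Exons of Igfbp7 overlap those of Polr2b, an RNA polymerase II subunit gene on the opposite strand, and the strand setting of the counting is not given in the sources used here. Reads from the shared stretch cannot be told apart. Polr2b stood at 16.1 to 16.7 FPKM in DMSO+Sham and at 10.4 to 13.9 in DMSO+AB, so its level was lower where that of Igfbp7 was higher. Its log2 fold change was -0.39 (SE 0.11, adjusted p = 0.0706).

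Igfbp6 encodes a binding protein with a preference for IGF2. Its levels were 12.01, 11.2 and 9.76 FPKM in DMSO+Sham and 13.1, 40.2 and 50.8 in DMSO+AB. The groups did not overlap, but DMSO+AB mouse 1 was only just above the sham mice. The log2 fold change of 1.38 was as large as that of Igfbp7 and had a wider error (SE 0.38, 95% interval 0.55 to 2.21, adjusted p = 0.0592). Without DMSO+AB mouse 1 it was 1.95 with an adjusted p of 0.000886, and without DMSO+AB mouse 3 it was 1.01 with an adjusted p of 0.180. With library weights it was 1.31 and passed (adjusted p = 0.0309).

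Igf1, the main IGF of adult tissue, was low in every library. It stood at 1.19, 1.35 and 0.41 FPKM in DMSO+Sham and at 1.60, 3.89 and 1.99 in DMSO+AB, again without overlap. The log2 fold change was 0.80 (SE 0.25, 95% interval 0.25 to 1.34, adjusted p = 0.0922). Without DMSO+AB mouse 1 it was 0.98 (adjusted p = 0.0446), and without DMSO+AB mouse 2, the highest for Igf1, it was 0.53 (adjusted p = 0.269). At levels this low, the value of 1 added to each FPKM makes the log2 fold change smaller than the ratio of the means. With 0.1 added instead, the log2 fold change was 1.30 and was not called.

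Igfbp5, a binding protein that also attaches to extracellular matrix, had 13.1, 23.9 and 12.8 FPKM in DMSO+Sham and 21.1, 24.3 and 27.7 in DMSO+AB. DMSO+Sham mouse 2 lay inside the range of the AB mice. The log2 fold change was 0.58 (SE 0.19, adjusted p = 0.112), and without DMSO+Sham mouse 2 it was 0.86 (adjusted p = 0.00335). Without DMSO+Sham mouse 3 it was 0.43 and was not called. For Igf1, Igfbp6 and Igfbp7, 3 of the 8 members tested, all values after AB lay above all sham values, and 17.9% of all genes tested did not overlap between these groups.

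The other 4 members gave small differences that did not pass the test. Igf2, a ligand best known from fetal growth, stood at 6.65, 11.2 and 6.02 FPKM in DMSO+Sham and at 8.86, 6.18 and 6.03 in DMSO+AB, a log2 fold change of -0.13 (95% interval -0.66 to 0.39). Igf1r, the receptor, stood at 5.53, 3.52 and 5.59 FPKM against 5.21, 5.43 and 5.66 after AB, a log2 fold change of 0.15 (95% interval -0.18 to 0.48). Both genes overlapped between the groups. Exons of Igf2 overlap those of Gm49394 on the same strand and of the antisense gene Igf2os, so its reads may include some of theirs. Igfbp3, the main carrier of IGFs in blood, ranged from 12.0 to 21.9 FPKM after sham surgery and from 12.0 to 22.8 after AB, with a log2 fold change of 0.09 (95% interval -0.42 to 0.60). Igfbp4, an inhibitory binding protein that proteases inactivate, ranged from 41.7 to 68.1 and from 49.3 to 66.6 FPKM, with a log2 fold change of 0.10 (95% interval -0.30 to 0.50). The intervals of these 4 genes include changes of 0.39 or more on the log2 scale in at least 1 direction.

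In mice given hispidulin, AB was compared with sham surgery in the same way. Here 0 of the 8 members were called by limma, and 2, Igfbp7 and Igfbp5, had an unadjusted p under 0.05. Over all genes tested the share called was 0%, with 847 at an unadjusted p under 0.05. Blocking on mouse number gave 17 genes and 0 members called. Igfbp7 had 149, 180.02 and 195 FPKM in Hispidulin+Sham and 262, 382 and 265 in Hispidulin+AB, without overlap. Its log2 fold change was 0.78 (SE 0.28, 95% interval 0.16 to 1.39, adjusted p = 0.599). Igfbp5 had 17.2, 18.95 and 17.6 FPKM against 26.2, 24.3 and 22.9 after AB, also without overlap, and a log2 fold change of 0.43 (SE 0.19, adjusted p = 0.676). These were 2 of 8 members, and 20.9% of all genes tested did not overlap in this comparison.

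Igfbp6 and Igf1 overlapped between Hispidulin+Sham and Hispidulin+AB. Igfbp6 stood at 14.6, 14.9 and 16.2 FPKM in Hispidulin+Sham and at 21.4, 19.5 and 11.3 in Hispidulin+AB. One AB mouse was below all 3 sham mice, and the log2 fold change was 0.14 (95% interval -0.69 to 0.97). Igf1 stood at 1.34, 1.39 and 1.48 FPKM against 1.03, 2.06 and 1.57, with overlap and a log2 fold change of 0.07 (95% interval -0.48 to 0.61). Igf1r had 4.33, 4.01 and 5.08 FPKM against 5.48, 4.96 and 6.23, a log2 fold change of 0.26 (SE 0.15, adjusted p = 0.779).

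The effect of AB was also averaged over the DMSO and hispidulin arms, 6 mice against 6. Igfbp7 and Igfbp5 rose, 2 of the 8 members tested, against 7.39% of all genes called and 3.52% called higher. Igfbp7 was higher in each of the 6 AB mice (262 to 628 FPKM) than in each of the 6 sham mice (142 to 212 FPKM), which 4.96% of all genes tested showed in one direction or the other. Its log2 fold change was 1.08 (SE 0.20, 95% interval 0.65 to 1.52, adjusted p = 0.00988). Leaving out the 3 libraries of high Myl7 gave nearly the same log2 fold change, 1.07, with an adjusted p of 0.101. Igfbp5 ranged from 12.8 to 23.9 FPKM after sham surgery and from 21.1 to 27.7 after AB, with DMSO+Sham mouse 2 inside the AB range. Its log2 fold change was 0.50 (SE 0.14, 95% interval 0.20 to 0.80, adjusted p = 0.0459). That adjusted p was close to the threshold, and it was under 0.05 in 7 of 22 alternative fits, in which the log2 fold change stayed between 0.43 and 0.64. When each mouse was left out in turn, it passed without DMSO+Sham mouse 2 (adjusted p = 0.00211) and without DMSO+AB mouse 1, and missed the threshold without any of the other 10 (0.0649 to 0.113). Without the 3 libraries of high Myl7 the log2 fold change was 0.52 (adjusted p = 0.253).

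Averaged in this way, Igfbp6 had a log2 fold change of 0.76 (SE 0.27, adjusted p = 0.113) and Igf1 one of 0.43 (SE 0.18, adjusted p = 0.166). Igf1r, the receptor, had a log2 fold change of 0.21 (95% interval -0.03 to 0.44, adjusted p = 0.275). None of these 3 was called. Igfbp6 passed in 2 of 22 alternative fits, at 1.04 (adjusted p = 0.00206) without DMSO+AB mouse 1 and at 0.77 (adjusted p = 0.0255) with library weights. Igf1r was at 0.12 without DMSO+Sham mouse 2.

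**Figure D2:**
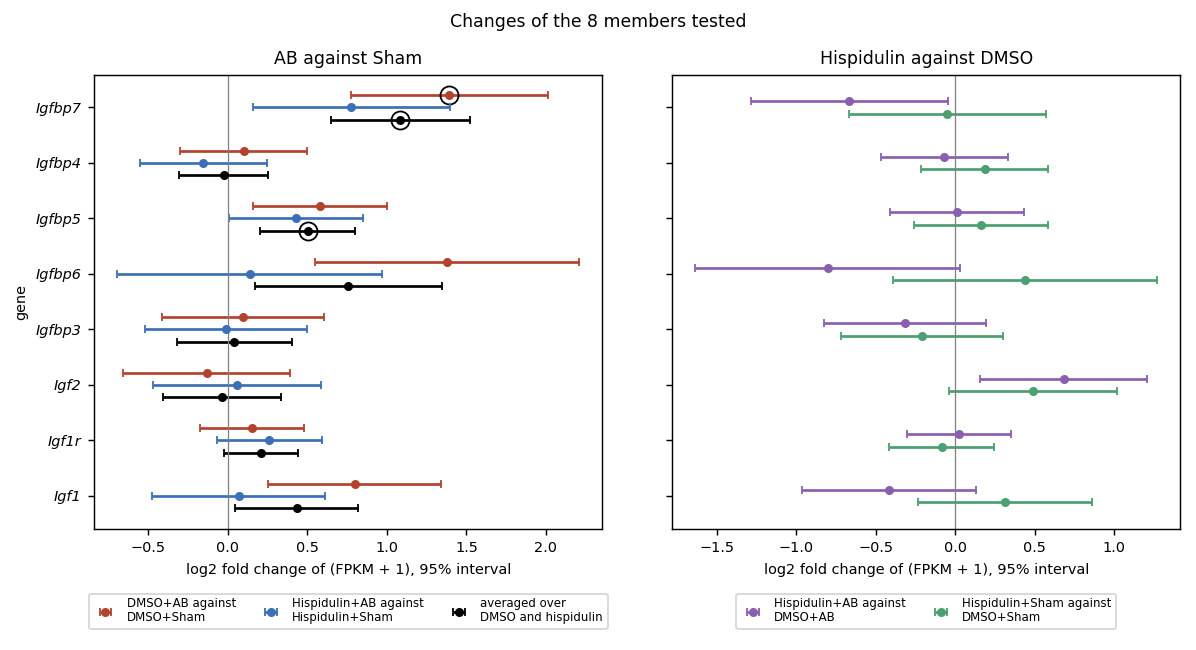
Log2 fold changes of (FPKM + 1), horizontal axis with 95% limma intervals, for the 8 tested IGF genes, with AB against Sham on the left (within DMSO, within hispidulin, and averaged) and hispidulin against DMSO on the right (after AB and after Sham). Black rings mark an adjusted p under 0.05, which Igfbp7 reached within DMSO and averaged and Igfbp5 reached averaged.

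The main question of the study was what hispidulin did to the banded heart. Between Hispidulin+AB and DMSO+AB, 0 of the 8 members were called by limma and 2, Igf2 and Igfbp7, had an unadjusted p under 0.05. The share of all genes called was 0%, with 362 genes at an unadjusted p under 0.05. This comparison shares the DMSO+AB mice with the comparison of AB and sham surgery in DMSO, so a DMSO+AB value that is high moves both.

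Igf2 was higher in each of the 3 Hispidulin+AB mice, at 10.25, 15.6 and 9.99 FPKM, than in each DMSO+AB mouse, at 8.86, 6.18 and 6.03. It was 1 of 8 members without overlap, and 7.88% of all genes tested did not overlap. The mean was 11.9 ± 3.15 FPKM with hispidulin and 7.02 ± 1.59 with DMSO (SD, n = 3), and the log2 fold change was 0.68 (SE 0.24, 95% interval 0.15 to 1.21, adjusted p = 0.996 from limma). Igfbp7 had 262, 382 and 265 FPKM with hispidulin against 276, 628 and 614 with DMSO. One Hispidulin+AB mouse lay above DMSO+AB mouse 1, so the groups overlapped. The log2 fold change was -0.67 (SE 0.28, 95% interval -1.29 to -0.05, adjusted p = 0.996 from limma). With single mice left out it ran from -1.06 without DMSO+AB mouse 1 (adjusted p = 0.0738) to -0.46 without DMSO+AB mouse 2, and it was -0.38 without the 3 libraries of high Myl7.

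Igfbp6 showed the same arrangement, with 21.4, 19.5 and 11.3 FPKM with hispidulin and 13.1, 40.2 and 50.8 with DMSO. DMSO+AB mouse 1 lay among the hispidulin mice, and the log2 fold change was -0.80 (95% interval -1.63 to 0.03, adjusted p = 0.996). Without that mouse it was -1.37 with an adjusted p of 0.0482, without DMSO+AB mouse 3 it was -0.44 (adjusted p = 0.9996), and without the 3 libraries of high Myl7 it was -0.33. Igf1 had a log2 fold change of -0.42 (95% interval -0.96 to 0.13, and -0.15 without DMSO+AB mouse 2) and Igfbp3 one of -0.31 (95% interval -0.82 to 0.19, and -0.57 and -0.14 without DMSO+AB mice 1 and 2). For Igf1r, Igfbp4 and Igfbp5 the means of the groups were close, at 5.56 against 5.43 FPKM, 56.7 against 59.4 FPKM and 24.5 against 24.4 FPKM with hispidulin and DMSO. An adjusted p of 0.996 or more for each of these members does not show that the groups were alike.

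The animal numbers in the column names fall into separate series, and levels were also compared within them, with 1 or 2 mice a group. DMSO+Sham mouse 1 belongs to neither series and is left out of these values. The log2 difference of Igfbp7 between Hispidulin+AB and DMSO+AB was -1.21 in one series (1 mouse against 1) and -0.40 in the other (2 mice against 2). Igf2 gave 0.64 and 0.70 in the same series. For AB against sham surgery in DMSO, Igfbp7 gave 1.53 (1 mouse against 1) and 1.10 (2 mice against 1). Igfbp6 gave -2.07 and -0.17 between Hispidulin+AB and DMSO+AB, and 2.08 and 1.16 for AB in DMSO. Between Hispidulin+AB and DMSO+AB, 5 of the 8 members had the same direction in both series, and Igf1r, Igfbp4 and Igfbp5 did not. For AB in DMSO it was also 5 of 8, and the series differed in direction for Igf2 (-0.80 and 0.26), Igf1r and Igfbp4. Of the 5, Igfbp3 was negative in both series (-0.14 and -0.015), against 0.09 in the model of all 12 libraries. For AB under hispidulin it was 4 of 8, with Igfbp7 at 0.69 in both series and Igf2, Igfbp3, Igfbp4 and Igfbp6 in opposite directions. In sham mice it was 4 of 8 as well, with Igf1r, Igfbp4, Igfbp5 and Igfbp7 in opposite directions.

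In sham mice, hispidulin was compared with DMSO to see what it did without pressure load. Of the 8 members 0 were called by limma, none had an unadjusted p under 0.05, and the share of all genes called was 0% with 287 at an unadjusted p under 0.05. Igf2 had 12.0, 13.5 and 8.67 FPKM in Hispidulin+Sham and 6.65, 11.2 and 6.02 in DMSO+Sham, with overlap and a log2 fold change of 0.49 (SE 0.24, 95% interval -0.04 to 1.02, adjusted p = 0.9999). Igfbp6 was higher in each hispidulin mouse (14.6 to 16.2 FPKM) than in each DMSO mouse (9.76 to 12.0 FPKM), 1 of 8 members against 5.6% of all genes without overlap. Its log2 fold change was 0.44 (95% interval -0.39 to 1.27). Igf1 had a log2 fold change of 0.31 (95% interval -0.23 to 0.86, and 0.08 without DMSO+Sham mouse 3) and Igfbp7 one of -0.05 (95% interval -0.67 to 0.57).

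Whether the effect of AB differed between hispidulin and DMSO was tested as an interaction. By limma 0 of 8 members were called, against 0% of all genes, and 1 member and 289 genes had an unadjusted p under 0.05. That member was Igfbp6, with a log2 difference between the effects of AB of -1.24 (SE 0.54, 95% interval -2.42 to -0.07, adjusted p = 0.9995 from limma). Igf1 gave -0.73 (95% interval -1.50 to 0.04) and Igfbp7 -0.62 (95% interval -1.49 to 0.26). The Igfbp6 value was -1.81 without DMSO+AB mouse 1 and -0.88 without DMSO+AB mouse 3. Without DMSO+AB mouse 1 the Igfbp7 value was -1.005, and without DMSO+AB mouse 2 the values of Igf1 and Igfbp7 were -0.46 and -0.41. Without the 3 libraries of high Myl7, Igfbp6, Igf1 and Igfbp7 gave -0.73, -0.45 and -0.24. For these 3 genes the effect of AB was therefore not shown to differ between hispidulin and DMSO after adjustment.

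Averaging hispidulin against DMSO over sham and AB mice was added after the values were seen, because the mean of Igf2 was higher with hispidulin in both, without a call in either. Again 0 of 8 members were called, with 0% of all genes called and 1 member and 347 genes at an unadjusted p under 0.05. Igf2 had a log2 fold change of 0.59 (SE 0.17, 95% interval 0.21 to 0.96, adjusted p = 0.999 from limma). Its levels overlapped, with 8.67 to 15.6 FPKM in the 6 hispidulin mice and 6.02 to 11.2 in the 6 DMSO mice. None of the 8 members separated the 6 mice from the 6, and 0.0257% of all genes tested did. Igfbp7 had a log2 fold change of -0.36 (95% interval -0.80 to 0.08, and -0.55 without DMSO+AB mouse 1).

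Igfbp2, a binding protein of fetal tissue and blood, was near the lower end of the table and was not tested. It was listed at 0 in DMSO+Sham mice 2 and 3, in Hispidulin+Sham mice 1 and 2 and in DMSO+AB mouse 3. Its highest values were 1.17 and 0.52 FPKM in Hispidulin+AB mice 2 and 1, and every other library stood at or under 0.28. Levels of 5 mesothelial markers, genes of the cells that cover the heart, are set beside these values. Upk3b, Msln, Krt19 and Upk1b were highest in Hispidulin+AB mouse 1, at 2.47, 2.90, 1.63 and 0.76 FPKM, and not in mouse 2, the highest for Igfbp2. In Hispidulin+AB mouse 2 they stood at 1.05, 1.14, 0.59 and 0.35 FPKM, and in the Hispidulin+Sham mice they reached 1.05, 1.15, 0.53 and 0.51. Wt1 went another way, with its highest value of 3.91 FPKM in DMSO+Sham mouse 2 against 1.92 to 2.60 in Hispidulin+AB. The summed FPKM of 5 mesothelial markers ranged from 2.21 to 10.4 in Hispidulin+AB, from 2.16 to 4.12 in DMSO+Sham, from 1.66 to 4.89 in Hispidulin+Sham and from 1.71 to 2.51 in DMSO+AB. Upk3b was listed at 0 in DMSO+Sham mouse 2 and Hispidulin+AB mouse 3, and Msln in DMSO+Sham mouse 2 and DMSO+AB mouse 3. The part of these cells in the Igfbp2 values was not tested.

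Some marker genes of fibroblasts and of pressure load were also higher after AB. Of 9 fibroblast markers, 3 were called higher after AB in DMSO, Col1a1, Col1a2 and Postn, and 4 in the averaged comparison, with Col3a1. Over all genes tested 2.5% and 3.52% were called higher in these comparisons. Lum was not called, with means of 17.8 FPKM in DMSO+Sham and 35.4 in DMSO+AB. In DMSO, 8 of the 9 had a positive log2 fold change, 7 had an unadjusted p under 0.05 and the median log2 fold change was 1.05. The lineage markers Pdgfra, Tcf21 and Dcn were not called in either. After AB in DMSO their log2 fold changes were 0.27 (95% interval 0.02 to 0.52), 0.55 (95% interval 0.05 to 1.04) and 0.16 (95% interval -0.28 to 0.60), and Pdgfra did not overlap between the groups, at 5.46 to 6.51 FPKM against 6.84 to 7.93. Of the 9 markers 2 did not overlap, against 17.9% of all genes tested. Ddr2, a collagen receptor gene, was the one marker with a negative log2 fold change, at -0.03 (95% interval -0.43 to 0.38). The summed FPKM of the list ranged from 350 to 452 in DMSO+Sham, from 357 to 487 in Hispidulin+Sham, from 411 to 991 in DMSO+AB and from 411 to 660 in Hispidulin+AB, and none of its genes was at 0. DMSO+AB mouse 1, the lowest of its group for Igfbp7 and Igfbp6, was also the lowest for this sum. Of 5 load-response genes, 4 were called higher after AB in DMSO and 5 in the averaged comparison, against the same 2.5% and 3.52% of all genes tested. Their summed FPKM ranged from 844 to 1817 in DMSO+Sham, from 1551 to 2426 in Hispidulin+Sham, from 6280 to 18591 in DMSO+AB and from 5608 to 8113 in Hispidulin+AB.

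Markers of other cell types were counted in the same way, and the lists were not tested against each other. None of 6 endothelial, 5 tested macrophage and 3 tested mesothelial markers was called by limma in any comparison of AB with sham surgery, with at most 1 endothelial and 0 macrophage and mesothelial markers at an unadjusted p under 0.05. Of 7 smooth muscle and pericyte markers, Tagln was called higher in the averaged comparison, and of 6 cardiomyocyte markers Actn2 was. Most of the others went the other way. Averaged, 3 smooth muscle and pericyte markers had a positive and 4 a negative log2 fold change. For cardiomyocyte markers it was 2 and 4 averaged, and 1 and 5 in DMSO. In DMSO none of these 13 was called, and 3 of each list had an unadjusted p under 0.05. The median log2 fold changes are given for AB in DMSO, under hispidulin and averaged, in that order. They were 1.05, 0.16 and 0.60 for fibroblast, 0.12, 0.21 and 0.09 for macrophage, and -0.14, 0.32 and 0.10 for mesothelial markers. For endothelial markers they were 0.15, 0.085 and 0.15, and for smooth muscle and pericyte markers 0.10, 0.069 and -0.13. The cardiomyocyte medians were -0.20, 0.012 and -0.081. The part of cell composition in the changes of Igfbp7 and Igfbp5 was not tested.

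**Figure D3:**
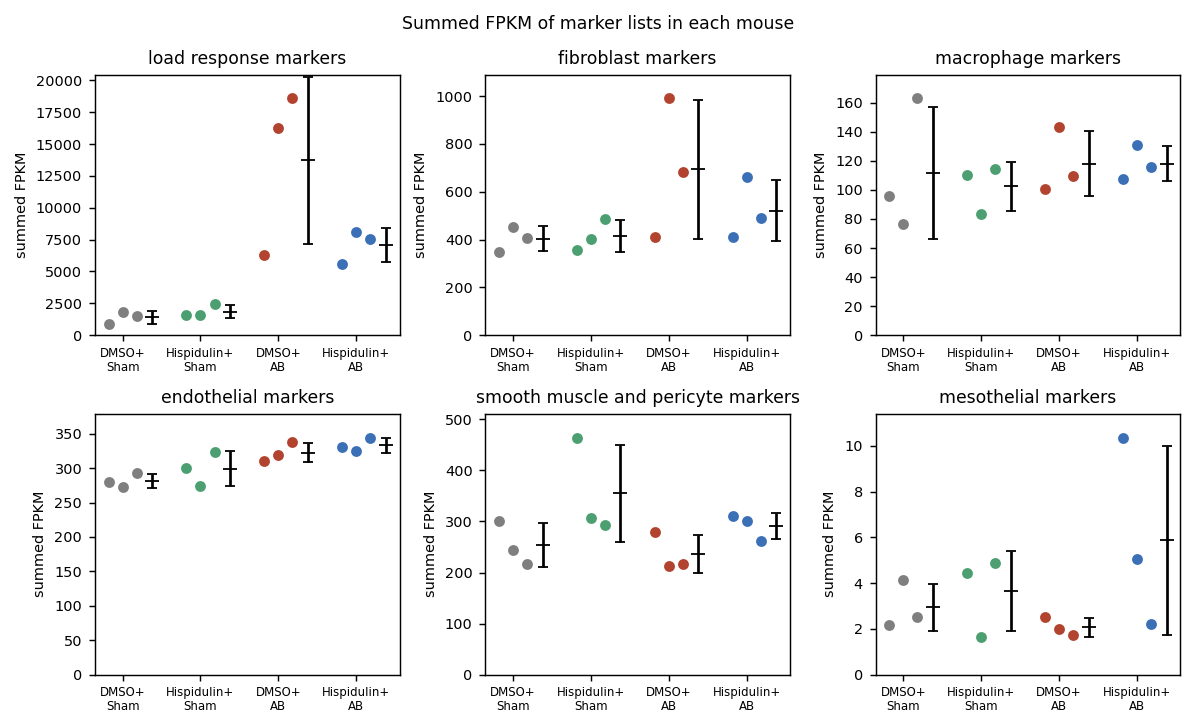
Summed FPKM (vertical axes, each from 0) of 6 marker lists in each mouse, with points for mice 1 to 3 from left to right in each group and the mean ± SD in black (n = 3). Load-response sums are higher in each AB mouse (5608 to 18591) than in each sham mouse (844 to 2426), while macrophage sums overlap between the groups.

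The genes whose levels were most like those of each member were found by Pearson's r of log2(FPKM + 1) over the 12 mice among all genes tested. These r are descriptions, since they are the highest of 11664 and the mice share the group differences. For Igfbp7 they were Bgn (r = 0.97), which encodes the matrix proteoglycan biglycan, Cilp (r = 0.97), a matrix protein gene of fibroblasts, and Nbl1 (r = 0.97), an inhibitor of bone morphogenetic proteins. After the group means were subtracted, their r were 0.95, 0.91 and 0.92. For Igfbp5 they were Col18a1 (r = 0.95), a basement membrane collagen, Ilk (r = 0.95), the integrin-linked kinase, and P4ha2 (r = 0.94), a collagen prolyl hydroxylase. For Igfbp6 they were Gpx4 (r = 0.97), a glutathione peroxidase of lipids, Lamp1 (r = 0.96), a lysosomal membrane protein, and Gemin7 (r = 0.95), of the survival motor neuron complex.

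Among the ligands, Igf1 was nearest to Ctsk (r = 0.94), the collagen-degrading cathepsin K, to Prkag2 (r = 0.94), an AMP-activated kinase subunit, and to Pcolce2 (r = 0.92), an enhancer of procollagen cleavage. Igf2 was nearest to Tnnt1 (r = 0.85), slow skeletal troponin T, Mgmt (r = 0.83), a DNA repair enzyme, and Acsl6 (r = 0.83), an acyl-CoA synthetase. Igf1r was nearest to Ppm1e, Syk and Fetub (r = 0.93, 0.90 and 0.89). For Igfbp3 the nearest genes were Scamp4, 5730409E04Rik and Cwc25 (r = 0.92, 0.90 and 0.89), and for Igfbp4 they were Scfd2, Tspan31 and Trappc4 (r = 0.82, 0.80 and 0.80). Between members, Igfbp6 and Igfbp7 had the highest r of the 28 pairs at 0.84, and 0.76 after group means were subtracted. Igf2 and Igf1r had the lowest, at -0.57 and -0.90.

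Other genes of the pathway were read from 4 lists of 38 genes in all, of which 31 were tested. After AB in DMSO, 0 were called higher and 3 lower, against 2.71% of all genes tested called lower, and the same count was found in the averaged comparison, against 3.87%. They were Akt2, Foxo3 and Ghr in both, comparisons that share the DMSO mice. The median log2 fold change of the 31 after AB in DMSO was 0.01, against -0.03 over all genes tested. In the comparisons of hispidulin with DMSO, of AB with sham surgery under hispidulin and in the interaction, none of the 31 was called by limma, and between 0 and 7 had an unadjusted p under 0.05.

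Of 19 receptors and signal transducers, all tested, Akt2 and Foxo3 were called lower after AB. In DMSO, 9 of the 19 had a positive and 10 a negative log2 fold change. Akt1 went the other way from Akt2 and was not called. It stood at 72.5 to 106 FPKM in DMSO+Sham and at 118 to 126 in DMSO+AB. Under hispidulin it stood at 94.5 to 102 after sham surgery and at 104 to 119 after AB. In the averaged comparison Akt1 was called without DMSO+Sham mouse 2 and with library weights. Akt2 encodes a kinase downstream of the insulin and IGF1 receptors. It stood at 82.3, 86.3 and 91.8 FPKM in DMSO+Sham and at 68.4, 56.0 and 68.2 in DMSO+AB, without overlap, a log2 fold change of -0.43 (SE 0.10, adjusted p = 0.0271). Averaged over both arms the log2 fold change was -0.32 (SE 0.07, adjusted p = 0.0167), and the 6 AB mice did not overlap the 6 sham mice. This held for 1 of the 31 pathway genes tested, against 4.96% of all genes tested. Foxo3 encodes a transcription factor that Akt kinases hold out of the nucleus. It stood at 35.9, 20.8 and 28.1 FPKM in DMSO+Sham and at 16.09, 16.15 and 19.2 in DMSO+AB, without overlap, a log2 fold change of -0.66 (SE 0.17, adjusted p = 0.0464), and -0.54 (SE 0.12, adjusted p = 0.0218) in the averaged comparison. After AB in DMSO, 4 of the 31 pathway genes did not overlap between the groups, against 17.9% of all genes tested.

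Of the 5 genes of the growth hormone axis, Ghr, the growth hormone receptor gene, was called lower. Averaged over both arms, 4 of the 5 had a negative log2 fold change and 4 an unadjusted p under 0.05. Socs2 went the other way, with means of 25.6 and 34.8 FPKM in DMSO+Sham and DMSO+AB. Under hispidulin its means were 22.2 and 31.9 FPKM. With library weights Stat5a, Stat5b and Socs2 were called as well. Ghr stood at 42.9, 45.2 and 35.4 FPKM in DMSO+Sham and at 33.4, 27.3 and 27.0 in DMSO+AB, without overlap, a log2 fold change of -0.48 (SE 0.11, adjusted p = 0.0330). Averaged over both arms it was -0.33 (SE 0.08, adjusted p = 0.0267). In Hispidulin+AB the mice had 33.8, 36.9 and 36.3 FPKM, each above all DMSO+AB mice, with a log2 fold change of 0.28 (SE 0.11, adjusted p = 0.996 from limma). Between these groups 3 of the 31 did not overlap, against 7.88% of all genes tested. The calls of Akt2, Foxo3 and Ghr depended on single mice and settings. Without DMSO+Sham mouse 1 and without DMSO+AB mouse 2, 0 of the 31 were called after AB in DMSO, and 1 was called without DMSO+Sham mouse 3 and without DMSO+AB mouse 3. The averaged count fell to 0 without Hispidulin+AB mouse 3 and to 1 without Hispidulin+Sham mouse 2, DMSO+AB mouse 2 or Hispidulin+AB mouse 1, and it rose to 6 without DMSO+Sham mouse 2, to 7 without DMSO+Sham mouse 3 and to 11 with library weights. Without the 3 libraries of high Myl7 both counts were 0. With median-of-ratios scaling, or with only the 6 libraries compared, 0 of the 31 were called after AB in DMSO, at adjusted p of 0.0552 to 0.0576 and of 0.224 to 0.240 for these 3 genes. The same count was 0 with the animal series as a covariate (adjusted p of 0.0711 for Akt2, 0.145 for Foxo3 and 0.122 for Ghr), where Ghr was also lost from the averaged comparison (0.0868). Foxo3 passed in DMSO in 4 of 17 alternative fits.

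The lists of binding protein partners and of Igf2 mRNA-binding proteins had no call in the model of all 12 libraries. Of 11 partners, proteases and inhibitors, 6 were tested, and Pappa, Pappa2, Adam12 and Plg stayed at or under 0.34 FPKM in every library. Igfbp1 was not found by symbol in the expression table. The 3 tested genes of highest level were Ctsd, the lysosomal protease cathepsin D, Htra1, a serine protease that cleaves Igfbp5, and Adam9, a membrane protease. In the averaged comparison with sham surgery their log2 fold changes were 0.12 (95% interval -0.09 to 0.32), -0.31 (95% interval -0.56 to -0.07, adjusted p = 0.119) and 0.09 (95% interval -0.16 to 0.34). Htra1 passed without DMSO+Sham mouse 3 (log2 fold change -0.42, adjusted p = 0.0102) and with library weights (-0.39, adjusted p = 0.00599), and Stc1, a stanniocalcin gene named after its values were seen, was called without DMSO+Sham mouse 2 and with library weights. Igf2bp2, which binds the Igf2 transcript, was the one of 3 such genes that was tested. It ranged from 1.04 to 4.29 FPKM in sham mice and from 2.58 to 6.21 in AB mice, with an averaged log2 fold change of 0.75 (SE 0.26, adjusted p = 0.0993). It passed without DMSO+Sham mouse 3 (adjusted p = 0.0263), when libraries were weighted (0.0135) and with the replicate block (0.0462).

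**Figure D4:**
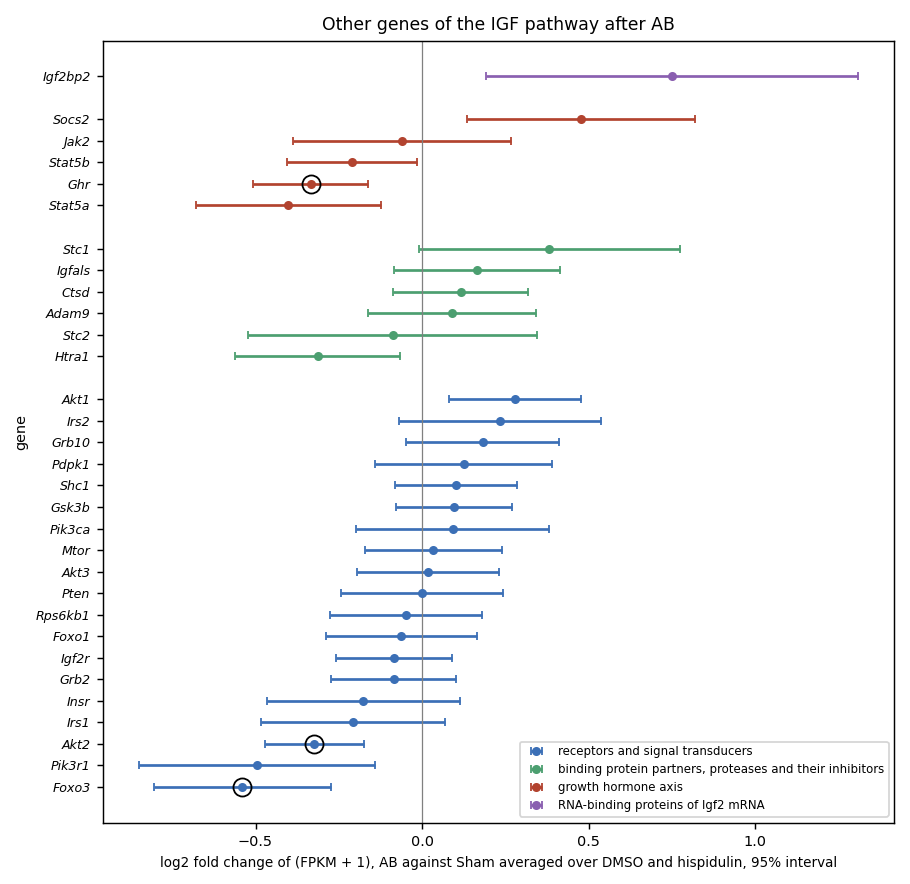
Log2 fold changes of (FPKM + 1) for AB against Sham, averaged over the DMSO and hispidulin arms, with 95% limma intervals (horizontal axis) for the 31 tested pathway genes grouped by list. Black rings mark the 3 genes with an adjusted p under 0.05, Akt2, Foxo3 and Ghr, which lie at -0.32, -0.54 and -0.33.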

How the data were processed

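Polyadenylated RNA from left ventricular muscle of 12 mice was sequenced as single-end reads of 50 bases on a BGISEQ-500. The authors deposited 1 table of FPKM, rounded to 0.01, for 18079 genes by NCBI Gene identifier, 17947 of which have a RefSeq symbol. The submitters' processing notes name HISAT2 2.0.4, Bowtie2 2.2.5, RSEM 1.2.12 and DESeq2 1.4.5. Their roles, the genome build, the annotation and the strand setting are not given in the sources used here. Steps between low FPKM did not recover whole reads, so read depth is unknown: of 245 ratios of low values, 23.7% came within 0.1 of an integer, where an even spread gives 20%. FPKM is scaled within a library, so a rise of abundant genes lowers the others.

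Groups came from the sample labels. FPKM were used as deposited with 1 added, on the log2 scale, for 11664 genes at FPKM of at least 1 in at least 3 libraries. A single model of all 12 libraries, with 4 group means and 8 residual degrees of freedom, was fitted in R 4.3.3 with limma 3.58.1 (eBayes with trend, two-sided, Benjamini-Hochberg over all genes tested), and the code was tested on simulated data. This replaces a count test, since no counts were analysed. Python 3.11.15 read RefSeq promoters and GENCODE M21 exons. Members, lists and tests were chosen with earlier results of these data known. The text names all members, pathway genes called (where a list had none, the 3 of highest mean FPKM), and the 3 genes most like each member. Akt1, Socs2, Stat5a and Stat5b were named after their values were seen. Labels do not say that same-numbered mice are related. Deviations from group means of same-numbered mice correlated by 0.147 to 0.228 in AB against Sham under hispidulin and by 0.126 to 0.330 in hispidulin against DMSO after Sham, and by -0.198 to -0.0239 and -0.183 to 0.300 in AB against Sham under DMSO and in hispidulin against DMSO after AB. The replicate number was tried as a block.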

Additional observations from a re-analysis of the deposited data

How the results depend on the processing

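Of the 8 members tested, 1 was called after AB in DMSO. That count was 0 with only the libraries compared, 0 when the series of animal numbers entered as a covariate (which in effect leaves out DMSO+Sham mouse 1), 3 with library weights and 0 without the 3 libraries of high Myl7 (an alternative chosen after seeing the data), and 0 to 3 with each mouse left out. The averaged comparison had 2 members called, but 1 with no filter, the animal series, quantile normalization or no trend, 3 with library weights (Igfbp6 with the other two), 0 without the 3 libraries of high Myl7 and 1 to 3 with each mouse left out. Hispidulin+AB against DMSO+AB had 0 called and 0 to 1 with each mouse left out. The other 4 comparisons had 0 members called in every fit. Genes called after AB in DMSO numbered 608, against 383 with no filter, 11, 142 and 1423 with only the libraries compared, the animal series and library weights, 20 without the high-Myl7 libraries and 91 to 1050 with each mouse left out. For the averaged comparison these were 862, against 547 with the animal series, 2535 with library weights, 73 without the high-Myl7 libraries and 373 to 1210 with each mouse left out. For AB against Sham under hispidulin 0 genes were called, against 49 with only the libraries compared and 209 with library weights.

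With the replicate block, 1 member was called after AB in DMSO and 2 in the averaged comparison, as without it, and 0 elsewhere. The block raised the genes called for AB against Sham under hispidulin from 0 to 17, and changed the pathway genes Foxo3 after AB in DMSO (adjusted p = 0.0718) and Igf2bp2 averaged (called).

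Log2 fold changes of members that changed sign in any fit were all uncalled in the model of all 12 libraries and in that fit. They are given with the value in each fit that turned them (series for the animal series, weights for library weights, Myl7 for the 3 libraries of high Myl7 left out, scaling for median-of-ratios, 0.1 added for that amount before the logarithm) and, where leaving out 1 mouse turned them, the range over those fits. For AB in DMSO they were Igf2 (-0.29 to 0.11), Igf1r (-0.029 to 0.24), Igfbp3 (series -0.097, Myl7 -0.085, -0.12 to 0.35) and Igfbp4 (series -0.10, -0.094 to 0.25). For AB under hispidulin they were Igf1 (-0.073 to 0.22), Igf2 (weights -0.051, Myl7 -0.0068, -0.13 to 0.18), Igfbp3 (series 0.032, scaling 0.0046, weights 0.0031, Myl7 0.0065, -0.12 to 0.067) and Igfbp6 (-0.029 to 0.40). For AB averaged they were Igf2 (-0.13 to 0.085), Igfbp3 (series -0.033, Myl7 -0.039, -0.064 to 0.17) and Igfbp4 (weights 0.11, Myl7 0.0093, -0.12 to 0.049). For hispidulin after AB they were Igf1r (Myl7 -0.049, -0.049 to 0.090), Igfbp4 (Myl7 0.12, -0.20 to 0.078) and Igfbp5 (-0.085 to 0.10). For hispidulin after Sham they were Igf1r (series 0.015, -0.27 to 0.0060), Igfbp3 (weights 0.10), Igfbp4 (-0.0099 to 0.34), Igfbp5 (series -0.0088) and Igfbp7 (weights 0.17, -0.22 to 0.065). For the interaction they were Igf2 (weights -0.013, -0.056 to 0.35), Igfbp3 (series 0.13, Myl7 0.092, -0.36 to 0.11) and Igfbp5 (series 0.019). For hispidulin averaged they were Igf1 (0.1 added 0.0052, Myl7 0.063, -0.17 to 0.082), Igf1r (series 0.019, -0.12 to 0.015), Igfbp4 (series -0.035, -0.040 to 0.13) and Igfbp6 (Myl7 0.030, -0.47 to 0.0015). Igfbp7 after AB was called in 11 of 17 alternatives in DMSO and in 21 of 22 averaged. The cause of these changes was not tested. With 3 mice a group and no counts, depth and counting error cannot be weighed.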
